A study of Mus musculus with 24 samples.

Results

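The 6 genes described here mark the projection neurons of the striatum and were measured in the brains of 24 mice: *Drd1*, *Drd2*, *Adora2a*, *Ppp1r1b*, *Rgs9* and *Pde10a*. They were taken by gene name from a table of 54532 gene rows, each name matched 1 row, and all 6 were among the 27286 genes with a value above 0 in at least 6 mice, which were tested. Adult male wild-type C57Bl6 mice were infused by osmotic minipump with angiotensin II at 0.7 mg/kg/day or with saline vehicle for 2 weeks, and brain hemispheres were then taken for bulk sequencing of poly-A RNA. Each infusion was given with or without a tail vein injection of human amnion epithelial cells (AEC), isolated from the amnion of term placentas, which makes 4 groups of 6 mice: vehicle, angiotensin II, vehicle + AEC and angiotensin II + AEC. Angiotensin II raises blood pressure, and the design asks whether the infusion changes the brain's RNA and whether AEC change it with or without the infusion. Values are FPKM, in which a gene's fragment count is scaled by gene length and by library size.

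The striatum is the main input station of the basal ganglia, and nearly all of its neurons are GABAergic projection neurons of 2 kinds. Neurons of the direct pathway carry the dopamine D1 receptor, which raises cyclic AMP (cAMP), and favour movement, whereas neurons of the indirect pathway carry the dopamine D2 receptor, which lowers cAMP, together with the adenosine A2a receptor, which raises it, and restrain movement. *Drd1*, *Drd2* and *Adora2a* encode these receptors. The other 3 genes act below the receptors in both kinds of neuron: *Ppp1r1b* encodes DARPP-32, which inhibits protein phosphatase 1 once protein kinase A has phosphorylated it, *Rgs9* encodes a regulator that ends signalling by the G proteins of the D2 receptor, and *Pde10a* encodes the phosphodiesterase that breaks down cAMP and cGMP in these cells. In RNA of a whole hemisphere, fewer such neurons and less RNA per neuron cannot be told apart.

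All coordinates are those of GRCm38 in the deposited table, and GENCODE M21 gives the same span for each of the 6. *Drd1* lies on chr13:54051183-54055705 on the minus strand, *Drd2* on chr9:49340627-49408177 on the plus strand and *Adora2a* on chr10:75316877-75334784 on the plus strand. *Ppp1r1b* lies on chr11:98348404-98357796 on the plus strand, *Rgs9* on chr11:109225355-109298129 on the minus strand and *Pde10a* on chr17:8525372-8986648 on the plus strand. The gene lengths used for FPKM equal the joined exons of each gene and run from 2547 bases for *Drd2* over 2928 for *Ppp1r1b*, 3062 for *Adora2a*, 3628 for *Drd1* and 6390 for *Rgs9* to 12849 for *Pde10a*. An exon of *1700003D09Rik*, on the opposite strand and at 1.08 FPKM on average, overlaps an exon of *Ppp1r1b*, and whether the counting used strand is not given in the sources used here. The other overlapping genes, 3 within *Pde10a*, share no exon with it.

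The promoters of 4 of the 6 genes were read from RefSeq (GRCm38.p6) as 250 bases before to 50 after a listed start. They are shown because the genes share a cell type and, as described further on, differed in opposite directions between libraries, and they let the windows be compared as sequence. The windows of *Adora2a* and *Ppp1r1b* were not used here. *Drd1* and *Pde10a* had 2 starts each, of which 1 is printed, and the *Pde10a* window lies inside the deposited gene span. Capitals mark the GC box (GGGCGG on either strand, read as CCGCCC on the other) and the TATA box (TATAAA on either strand).
Drd1, chr13:54055609-54055908, minus strand: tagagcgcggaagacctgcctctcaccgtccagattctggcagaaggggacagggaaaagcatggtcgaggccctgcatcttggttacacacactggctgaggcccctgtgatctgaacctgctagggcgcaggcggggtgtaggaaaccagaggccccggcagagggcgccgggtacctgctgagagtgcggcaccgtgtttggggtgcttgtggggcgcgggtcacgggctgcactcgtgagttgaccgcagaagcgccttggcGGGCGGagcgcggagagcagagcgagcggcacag
Drd2, chr9:49340153-49340452, plus strand: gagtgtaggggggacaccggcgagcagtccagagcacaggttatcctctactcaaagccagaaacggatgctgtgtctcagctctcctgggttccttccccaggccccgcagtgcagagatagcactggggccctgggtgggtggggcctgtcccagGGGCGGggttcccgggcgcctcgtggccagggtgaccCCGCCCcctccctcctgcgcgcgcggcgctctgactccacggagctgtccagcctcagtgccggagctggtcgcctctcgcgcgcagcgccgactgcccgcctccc
Rgs9, chr11:109298132-109298431, minus strand: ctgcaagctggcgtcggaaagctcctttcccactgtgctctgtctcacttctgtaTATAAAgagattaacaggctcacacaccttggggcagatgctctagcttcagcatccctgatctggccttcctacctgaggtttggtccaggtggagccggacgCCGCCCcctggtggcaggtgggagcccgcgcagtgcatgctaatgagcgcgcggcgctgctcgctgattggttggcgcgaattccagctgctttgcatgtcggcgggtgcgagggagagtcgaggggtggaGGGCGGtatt
Pde10a, chr17:8801495-8801794, plus strand: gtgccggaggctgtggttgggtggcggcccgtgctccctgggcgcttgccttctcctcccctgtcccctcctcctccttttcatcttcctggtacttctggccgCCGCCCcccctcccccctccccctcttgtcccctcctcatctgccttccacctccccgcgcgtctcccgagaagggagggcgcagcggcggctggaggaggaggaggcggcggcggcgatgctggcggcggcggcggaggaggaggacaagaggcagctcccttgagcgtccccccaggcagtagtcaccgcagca

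A GC box was found in each of the 4 windows, 2 copies each for *Drd2* and *Rgs9* and 1 each for *Drd1* and *Pde10a*, and 35.7% of all 32851 RefSeq windows hold one. Only the *Rgs9* window of these 4 holds a TATA box, which is in 13.6% of all windows. Neither the E box CACGTG (in 7.15% of all windows) nor the full cAMP response element TGACGTCA (in 1.79%) was found in them. GC content was 65.7% for *Drd1*, 70.3% for *Drd2*, 60.3% for *Rgs9* and 71.3% for *Pde10a*, against a median of 52.7% over all windows.

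Libraries held 16536449 to 25308700 reads, recovered from the FPKM steps, and the 6 genes had between 259 (*Drd1*) and 12515 (*Ppp1r1b*) reads in a mouse, so none of the values sits near the limit of counting. The libraries fell into sets that no label names, by their total FPKM over genes. That total was 277116 to 298301 for 18 libraries. It was 338334 to 348597 for angiotensin II replicate 5, vehicle + AEC replicate 6, and replicates 5 and 6 of both vehicle and angiotensin II + AEC, 6 libraries in all. Mitochondrial genes took 4.79% to 5.75% of the reads in the 18 and 6.17% to 6.85% in the 6. Because this split runs through the 6 genes, results are given over all 24 libraries and over the 18 alone. Other markers of striatal projection neurons, of the direct pathway (*Tac1*), the indirect pathway (*Penk*) or both, were present, with *Penk* at 145 FPKM, *Adcy5* at 42.6 FPKM and *Tac1* at 13.9 FPKM on average (n = 24).

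*Ppp1r1b* was by far the most abundant of the 6, at 108 ± 26.3 FPKM (mean ± SD, n = 24), and lay above *Adora2a* in 24 of 24 mice without overlap. *Adora2a* followed at 16.6 ± 3.75 FPKM and *Drd2* at 14.4 ± 3.33 FPKM. Their ranges overlapped over the mice, but *Adora2a* was the higher in 22 of 24. *Rgs9* (10.04 ± 0.935 FPKM) and *Pde10a* (8.97 ± 2.42 FPKM) could not be ordered, since *Rgs9* was the higher in 14 of 24 mice. *Drd1* was lowest, at 6.47 ± 1.09 FPKM, and lay below *Pde10a* in 22 of 24 mice. These levels are per length of gene and are descriptions of whole hemispheres, in which *Drd1* and *Drd2* are also made outside the striatum.

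*Drd1*, the D1 receptor, ran from 4.72 to 7.13 FPKM with vehicle (median 6.64, n = 6), from 5.17 to 7.52 with angiotensin II (median 6.82), from 5.41 to 7.52 with vehicle + AEC (median 6.83) and from 3.99 to 7.90 with angiotensin II + AEC (median 6.92). The lowest mouse of every group was a library of high total FPKM, and all groups overlapped. *Drd2*, the D2 receptor, ran from 11.2 to 21.7 FPKM with vehicle (median 14.1), from 12.2 to 19.2 with angiotensin II (median 14.04), from 11.3 to 21.9 with vehicle + AEC (median 13.1) and from 10.8 to 19.6 with angiotensin II + AEC (median 12.1). Here the highest mouse of every group was one of the 6, and all groups overlapped. *Adora2a*, the A2a receptor, ran from 14.1 to 25.2 FPKM with vehicle (median 14.9), from 12.8 to 18.6 with angiotensin II (median 16.5), from 13.6 to 24.8 with vehicle + AEC (median 14.7) and from 12.8 to 22.1 with angiotensin II + AEC (median 14.9). Its groups overlapped too, with the highest mouse again among the 6 libraries.

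*Ppp1r1b* (DARPP-32) ran from 85.9 to 168 FPKM with vehicle (median 96.1), from 84.3 to 137 with angiotensin II (median 99.9), from 84.4 to 168 with vehicle + AEC (median 91.2) and from 92.0 to 153 with angiotensin II + AEC (median 98.2). As for *Drd2*, the top of each range was a library of high total FPKM. *Rgs9* ran from 9.28 to 11.6 FPKM with vehicle (median 9.89), from 8.61 to 11.9 with angiotensin II (median 10.2), from 8.88 to 11.2 with vehicle + AEC (median 9.87) and from 8.59 to 10.8 with angiotensin II + AEC (median 10.1). All groups overlapped. *Pde10a* ran from 4.91 to 11.7 FPKM with vehicle (median 10.6), from 5.20 to 10.8 with angiotensin II (median 9.89), from 5.32 to 11.0 with vehicle + AEC (median 9.56) and from 4.47 to 11.5 with angiotensin II + AEC (median 9.65). In each group its lowest mouse was a library of high total FPKM.

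**Figure D1:**
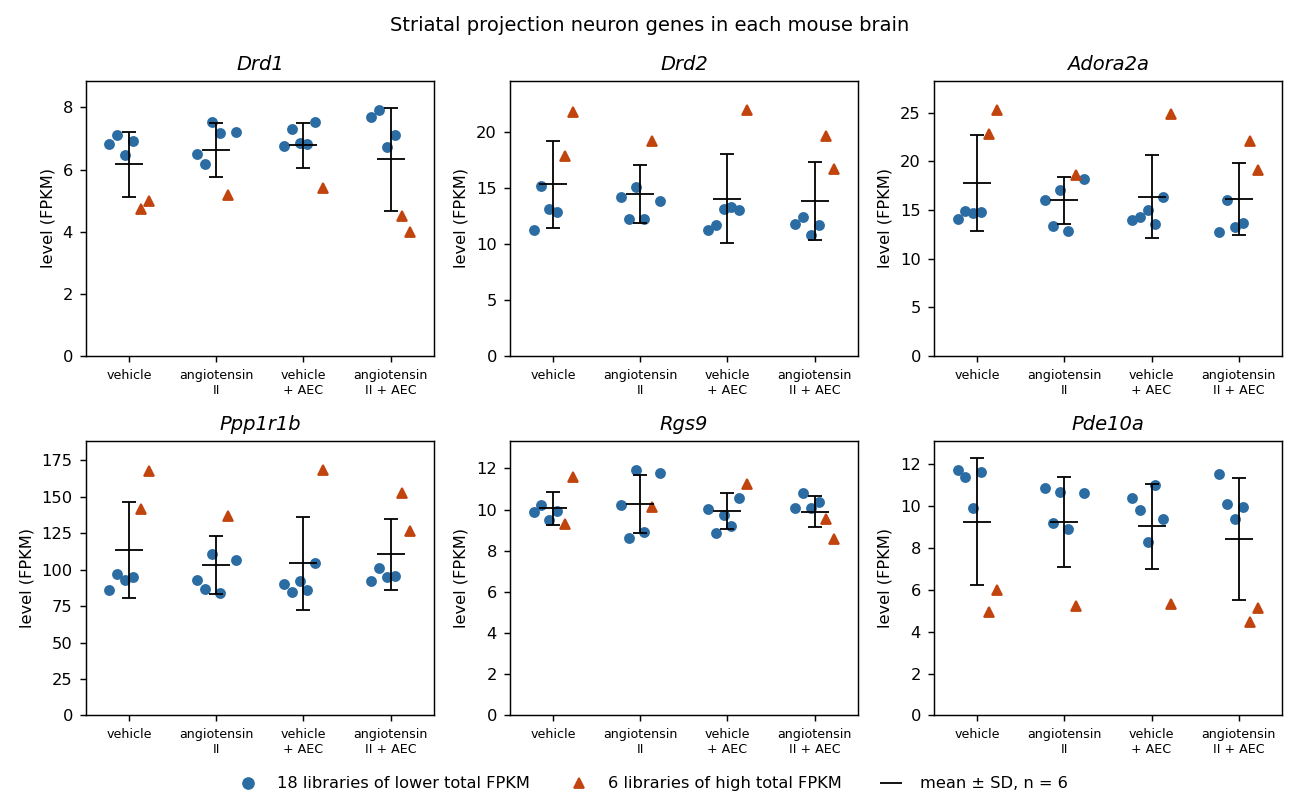
Level of each gene in each of the 24 mice (y axis, FPKM) by treatment group (x axis); circles are the 18 libraries of lower total FPKM, triangles the 6 of high total FPKM, and the bars are mean ± SD of 6 mice. The groups overlap for every gene, and the triangles lie above the circles for *Drd2*, *Adora2a* and *Ppp1r1b*, below them for *Drd1* and *Pde10a*, and among them for *Rgs9*.

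No difference between groups passed the test for any of the 6 genes. With limma on log2(FPKM + 0.1) across all 27286 genes, 0 of 6 passed an adjusted p-value of 0.05, as did 0% of all genes tested (0 genes) in each of the 4 comparisons and in the interaction. At an unadjusted p-value under 0.05, limma called 0 of 6 for angiotensin II against vehicle, where 604 genes (2.21% of those tested) passed. It called 0 of 6 for angiotensin II + AEC against angiotensin II (694 genes, 2.54%), 0 of 6 for vehicle + AEC against vehicle (658 genes, 2.41%), 0 of 6 for angiotensin II + AEC against vehicle + AEC (725 genes, 2.66%) and 0 of 6 for the interaction (692 genes, 2.54%). With limma voom on the recovered reads, 0 genes passed after adjustment and 637 to 729 before it. The comparisons share groups, so they are not independent of each other. In 24 two-sided exact permutation tests of 6 against 6 mice (6 genes, 4 comparisons) the lowest p was 0.225, where 0.00216 is the smallest this design can give.

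With angiotensin II against vehicle, the log2 fold change was 0.11 for *Drd1* (SE 0.153), -0.062 for *Drd2* (SE 0.177) and -0.12 for *Adora2a* (SE 0.172). For the signalling genes it was -0.11 for *Ppp1r1b* (SE 0.185), 0.022 for *Rgs9* (SE 0.082) and 0.036 for *Pde10a* (SE 0.261). Every 95% interval held 0, and limma's adjusted p-values were 0.994 to 0.997. *Rgs9* had the narrowest interval, -0.15 to 0.19, and *Pde10a* the widest, -0.51 to 0.58.

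When AEC were added to angiotensin II, the log2 fold change was -0.10 for *Drd1*, -0.082 for *Drd2*, -0.0018 for *Adora2a*, 0.095 for *Ppp1r1b*, -0.044 for *Rgs9* and -0.18 for *Pde10a*, with the same SE as above and intervals that all held 0. When AEC were given with vehicle, it was 0.14, -0.12, -0.11, -0.12, -0.018 and 0.0061 for the same genes in the same order. Between angiotensin II + AEC and vehicle + AEC it was -0.14, -0.019, -0.014, 0.10, -0.0042 and -0.15. The interaction of angiotensin II and AEC, the test of whether AEC acted differently with the infusion, was estimated at -0.24 for *Drd1* (SE 0.216, 95% interval -0.69 to 0.20, limma's adjusted p = 0.931), the lowest p-value of the 6. Differences inside these intervals remain compatible with the data of this fit.

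Between the library sets, 5 of the 6 genes differed by more than between any groups. *Ppp1r1b* stood at 149 ± 16.9 FPKM in the 6 libraries of high total FPKM and at 94.1 ± 7.65 in the other 18, a ratio of 1.58. *Drd2* stood at 19.5 ± 2.07 against 12.7 ± 1.27 FPKM (ratio 1.53) and *Adora2a* at 22.1 ± 2.80 against 14.7 ± 1.497 FPKM (ratio 1.502). For these 3 genes each of the 6 libraries lay above each of the 18, as it did for 11.2% of all genes tested. *Pde10a* went the other way, at 5.16 ± 0.491 against 10.2 ± 1.001 FPKM, so that the 18 were 1.98 times higher. *Drd1* stood at 4.80 ± 0.505 against 7.03 ± 0.453 FPKM, 1.47 times higher in the 18. For both, each of the 6 libraries lay below each of the 18, as for 16.3% of all genes. *Rgs9* was at 10.1 ± 1.15 and 10.03 ± 0.890 FPKM, and its sets overlapped. The sets were found in the data and are not groups of the study, so these values are a description.

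For these 5 genes the sets did not overlap, so the direction of the difference within every group follows from that and is no further result. Its size within a group rests on 1 or 2 libraries of high total FPKM. The log2 difference for *Pde10a* was -1.02 among vehicle mice, -0.93 with angiotensin II, -0.85 with vehicle + AEC and -1.08 with angiotensin II + AEC. For *Drd2* it was 0.59, 0.51, 0.81 and 0.63 in the same order. Since the groups hold 1 or 2 of the 6 libraries each, a fit with the set as a term can separate it from the treatments. In that fit the SE of a group difference fell to 0.074 for *Drd2* and to 0.075 for *Pde10a*, and was 0.080 for *Rgs9*.

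The order of the genes also depended on the set. In the 6 libraries *Rgs9* lay above *Pde10a* in 6 of 6, and *Pde10a* above *Drd1* in 4 of 6. In the 18 libraries *Pde10a* and *Rgs9* had means of 10.2 and 10.03 FPKM, and *Rgs9* lay above *Drd1* in 18 of 18.

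The 3 genes that were higher in the 6 libraries are the shortest and the richest in GC of the 6 genes. The longest transcript had 61.0% GC for *Ppp1r1b*, 59.2% for *Adora2a* and 55.0% for *Drd2*, all higher in the 6 libraries. It had 46.0% for *Drd1* and 48.3% for *Pde10a*, both lower there, and 48.2% for *Rgs9*, whose sets overlapped. By length the same split held between *Drd2*, *Ppp1r1b* and *Adora2a* on one side and *Drd1* and *Pde10a* on the other. *Rgs9*, at 6390 bases, is longer than *Drd1* at 3628, yet its log2 set difference was 0.0041. Over the 13649 genes with a mean of at least 1 FPKM, the set difference correlated with length at Spearman's rho = -0.52 and, for the 13633 of them with a GC value, with GC content at rho = 0.45. These are correlations across genes of the same libraries, and genes are not independent replicates. The sets were told apart by total FPKM, which divides by length and so is higher where more reads fall on short genes, so the correlation with length is in part fixed by that choice and is no independent result. Over 39 striatal genes, the 6 included, rho was -0.58 with length and 0.60 with GC, and 9 were higher and 10 lower in the 6 libraries without overlap, against 11.2% and 16.3% of all genes tested. This was not particular to striatal genes, as 4 of 7 interneuron genes were higher and 2 lower, and 3 of 6 genes of all neurons were higher and 1 lower. The lists for dopaminergic neurons, pituitary, olfactory bulb and other dopamine and adenosine receptors had 0. The share over genes of like level was not computed. Among the striatal genes *Penk*, the enkephalin precursor of the indirect pathway, was higher (log2 difference 0.45) and *Tac1*, the substance P precursor of the direct pathway, overlapped (0.17). *Gnal*, the G protein subunit that couples D1 and A2a receptors to cyclase, was lower (-0.63), and *Ppp1ca*, a catalytic subunit of the phosphatase that DARPP-32 inhibits, was higher (0.63). The part of length, GC content or the handling of the libraries in the difference was not tested.

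**Figure D2:**
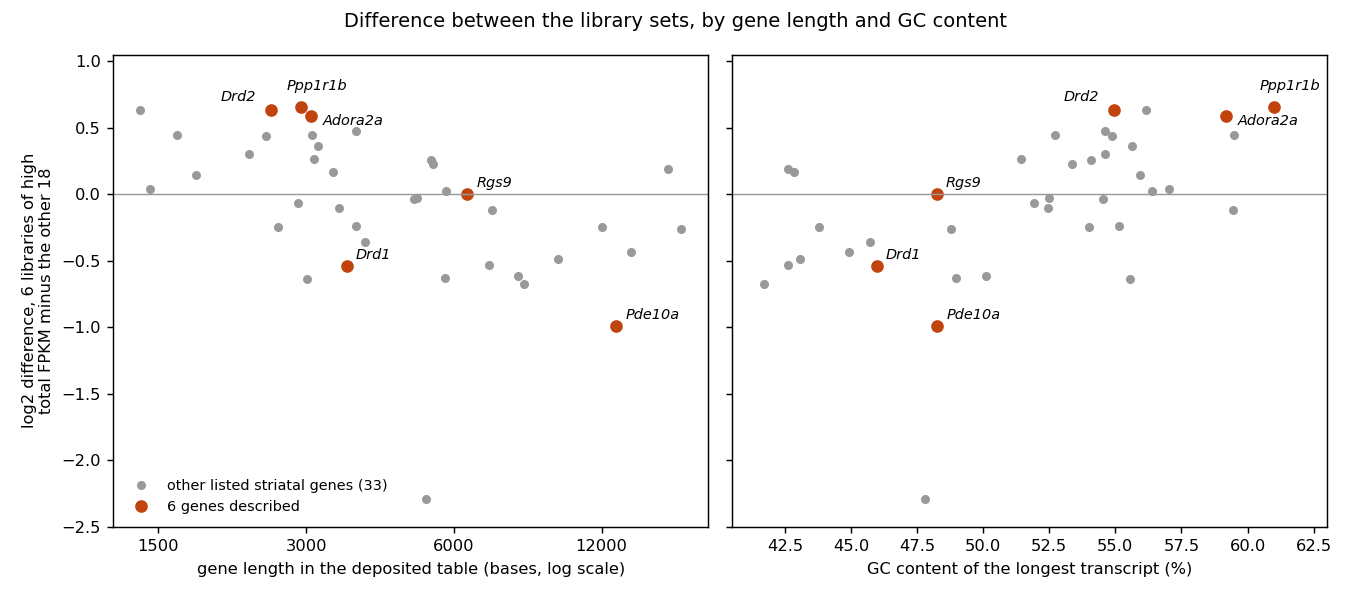
Log2 difference between the 6 libraries of high total FPKM and the other 18 (y axis, from a fit with the 4 groups) for 39 striatal genes, against gene length in bases (left, log axis) and GC content of the longest transcript in percent (right). *Ppp1r1b*, *Adora2a* and *Drd2* sit above 0, other genes of like length and GC content such as *Dclk3* (3005 bases, 55.5% GC, at -0.64) sit below it, and *Pde10a*, the longest of the 6 genes at 12849 bases, sits at -0.99.

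With the library set as a term in limma, 1 of the 6 genes passed an unadjusted p-value of 0.05 when AEC were added to angiotensin II, as did 3.9% of all genes. This was *Drd2*, with a log2 fold change of -0.19 (SE 0.074, 95% interval -0.34 to -0.033, limma's adjusted p = 0.999997). In limma on the 18 libraries alone 1 of the 6, again *Drd2*, passed the unadjusted threshold, as did 4.61% of all genes. In the 18 libraries it ran from 12.2 to 15.04 FPKM with angiotensin II (n = 5) and from 10.8 to 12.4 FPKM with angiotensin II + AEC (n = 4). These ranges overlapped, and the difference was -0.21 with a two-sided exact permutation p of 0.0476. In angiotensin II replicate 4, 5 pituitary marker genes summed to 1573 FPKM against 2.27 to 33.6 FPKM in the other 23 libraries, and the pituitary also makes *Drd2*. Its *Drd2* was 12.3 FPKM, among the lower values of its group, and its *Adora2a* (12.8 FPKM) and *Ppp1r1b* (84.3 FPKM) were the lowest of the group. For *Drd2*, the difference without that library was -0.24 (exact permutation p = 0.0571, 4 against 4 mice).

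With vehicle + AEC against vehicle, 1 of 6 passed an unadjusted p-value of 0.05 in the same fit, against 3.54% of all genes. This was *Pde10a*, at -0.16 (SE 0.075, 95% interval -0.31 to -0.0043, limma's adjusted p = 0.99985). In limma on the 18 libraries alone 1 of the 6, again *Pde10a*, passed that threshold, as did 4.18% of all genes. In the 18 libraries it ran from 9.87 to 11.7 FPKM with vehicle (n = 4) and from 8.27 to 11.0 with vehicle + AEC (n = 5), and the exact permutation p was 0.0714. No gene passed after adjustment for any comparison of groups in these fits, and neither *Drd2* nor *Pde10a* is called here.

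**Figure D3:**
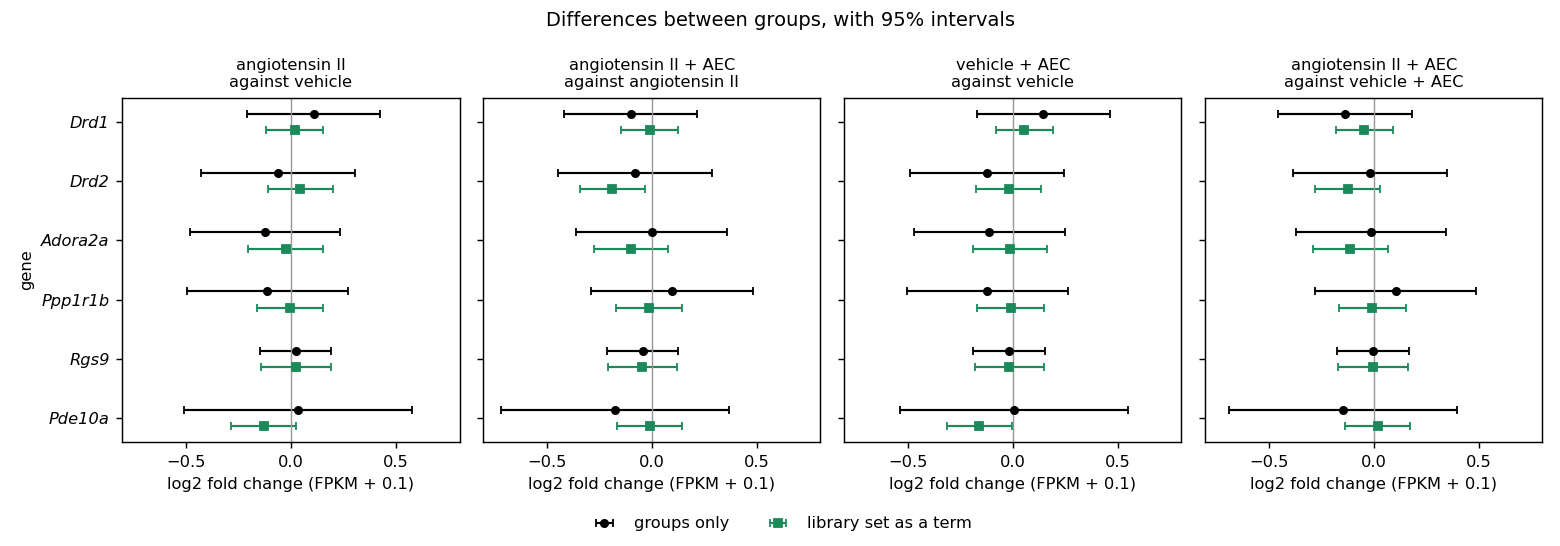
Log2 fold change on the FPKM + 0.1 scale (x axis) of each gene (y axis) in the 4 comparisons, with 95% intervals from limma; circles are the fit with groups only and squares the fit with the library set as a term. With the set as a term the intervals are about as wide for *Rgs9* and narrower for the other 5 genes, and those of *Drd2* (angiotensin II + AEC against angiotensin II) and *Pde10a* (vehicle + AEC against vehicle) then leave out 0.

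The balance of the receptors was taken as the ratio of *Drd1* to *Drd2*, which compares direct with indirect pathway markers within a mouse. It was 0.229 to 0.609 with vehicle (median 0.482), 0.269 to 0.584 with angiotensin II (median 0.504), 0.247 to 0.627 with vehicle + AEC (median 0.549) and 0.230 to 0.654 with angiotensin II + AEC (median 0.617). The groups overlapped. Over all 24 mice the log2 ratio differed by 0.17 with angiotensin II against vehicle, by -0.019 when AEC were added to angiotensin II, by 0.27 with vehicle + AEC against vehicle and by -0.12 between angiotensin II + AEC and vehicle + AEC. The two-sided exact permutation p-values were 0.600, 0.987, 0.312 and 0.948, and adjusted over the 8 ratio tests all were 0.987. Between the library sets the ratio did not overlap, at 0.229 to 0.269 in the 6 libraries and 0.456 to 0.654 in the 18.

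Within the 18 libraries the ratio of *Drd1* to *Drd2* was higher with angiotensin II + AEC than with angiotensin II. It was 0.610 to 0.654 in 4 mice against 0.456 to 0.584 in 5, so the ranges did not overlap. The log2 difference was 0.30, with a two-sided exact permutation p of 0.0159, the smallest that 4 against 5 mice can give, and 0.127 after adjustment over the 8 ratio tests within the 18, so it failed the correction. Without angiotensin II replicate 4 it was 0.35, again without overlap (exact permutation p = 0.0286, the smallest that 4 against 4 mice can give). The ratio holds the same *Drd2* values as the *Drd2* difference described above, so it is no separate result. The difference between angiotensin II + AEC and vehicle + AEC was 0.16 in the same direction (exact permutation p = 0.0556). With vehicle + AEC against vehicle it was 0.11 (exact permutation p = 0.294), and whether AEC changed the ratio more with angiotensin II than with vehicle was not tested.

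The ratio of *Adora2a* to *Drd2*, both markers of the indirect pathway, passed no test between groups. It ran from 0.985 to 1.28 with vehicle, from 0.969 to 1.31 with angiotensin II, from 1.02 to 1.26 with vehicle + AEC and from 1.09 to 1.29 with angiotensin II + AEC, and the library sets overlapped. Its log2 differences between groups were -0.062, 0.081, 0.014 and 0.0056 in the order above, with exact permutation p-values of 0.268 to 0.937.

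**Figure D4:**
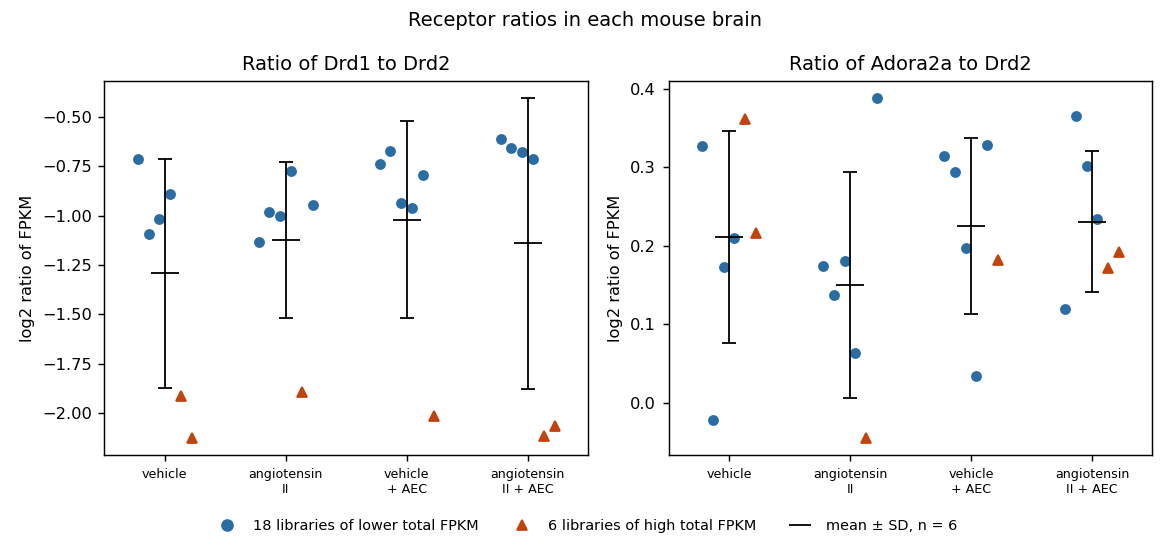
Log2 ratio of FPKM (y axis) of *Drd1* to *Drd2* (left) and of *Adora2a* to *Drd2* (right) in each mouse by treatment group (x axis), with circles for the 18 libraries of lower total FPKM, triangles for the 6 of high total FPKM, and bars for mean ± SD of 6 mice. The *Drd1* to *Drd2* ratio of the triangles lies below all circles, and the 4 circles with angiotensin II + AEC lie above the 5 with angiotensin II.

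Across mice the deviations of the 6 genes were all positively correlated once the 6 libraries were set aside. Over 24 mice, the 15 pairwise correlations of deviations from the group means had a median r of 0.25 and ran from -0.86 (*Ppp1r1b* and *Pde10a*) to 0.97 (*Adora2a* and *Ppp1r1b*), 9 positive and 6 negative. *Drd1* and *Pde10a* correlated at 0.91, and each was negative against *Drd2*, *Adora2a* and *Ppp1r1b*. Over the 18 libraries all 15 were positive, with a median r of 0.50 and a range of 0.13 to 0.91. *Ppp1r1b* and *Rgs9* correlated at 0.91 (rho = 0.87), *Adora2a* and *Ppp1r1b* at 0.88 and *Adora2a* and *Rgs9* at 0.86. *Drd1* and *Drd2*, which mark different neurons, correlated at 0.42. *Pde10a* was the least tied to the others, at 0.13 to 0.37. For each pair, the 2 mice farthest from the median of 1 of its genes, the one listed first in the opening, were then left out. The mice left out can thus differ between pairs. Of the 15 correlations 14 stayed positive, and the median was 0.37. Values of 1 mouse share a library and a dissection, so these correlations are descriptions.

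The spread behind them was small. Within groups of the 18 libraries the SD of log2 FPKM was 0.091 for *Drd1*, 0.13 for *Drd2*, 0.15 for *Adora2a*, 0.12 for *Ppp1r1b*, 0.13 for *Rgs9* and 0.13 for *Pde10a*. The median over 13649 genes of at least 1 FPKM was 0.11. Counting alone would give 0.020 for *Ppp1r1b* and 0.065 for *Drd1*, so *Drd1* was the gene closest to its counting error.

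**Figure D5:**
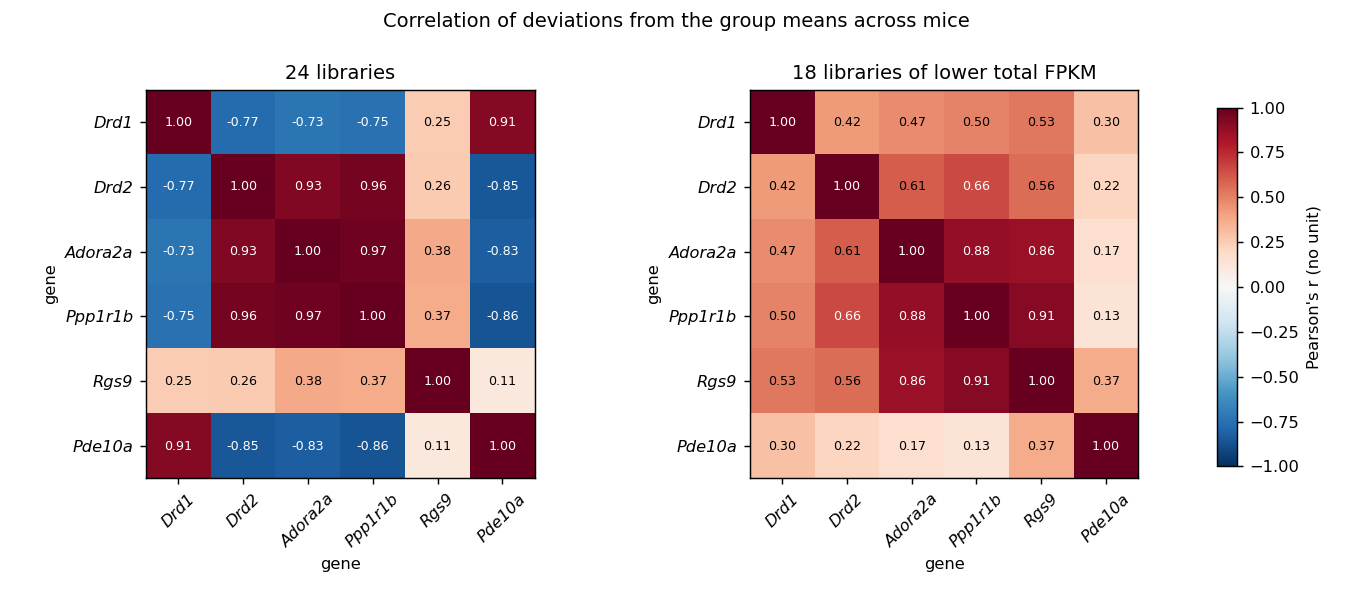
Pearson's r between each pair of genes (both axes) of the deviations of log2(FPKM + 0.1) from the group means, over 24 libraries (left) and over the 18 of lower total FPKM (right), coloured from -1 to 1. The left panel holds negative values for *Drd1* and *Pde10a* against *Drd2*, *Adora2a* and *Ppp1r1b*, and the right panel holds 15 positive pairs.

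The genes whose deviations were most like the mean of the 6 over all 24 mice, among genes of at least 1 FPKM, were *Ddn* (r = 0.80), *Agap2* (0.75), *Myo18a* (0.73), *Ptk2b* (0.73), *Camk2a* (0.73), *Shank3* (0.73), *Htra2* (0.73), *Pou3f1* (0.71), *Ptpn5* (0.71) and *Pde1b* (0.71). *Ptpn5*, the striatal-enriched phosphatase STEP, and *Pde1b*, a calmodulin-dependent phosphodiesterase, belong to the listed dopamine and cAMP cascade. *Camk2a* encodes a kinase of excitatory synapses and *Shank3* a scaffold of the postsynapse. Over the 18 libraries alone, a choice made after seeing the data, the 10 were *Car11* (0.88), *Gng7* (0.88), *Scn4b* (0.87), *Ngef* (0.87), *Lpcat2* (0.86), *Dlgap3* (0.86), *Ubxn11* (0.84), *Igfbp4* (0.84), *Tpst2* (0.84) and *Zfand2b* (0.83). *Gng7* encodes the G protein gamma subunit that pairs with *Gnal* in the striatum, and *Scn4b* a sodium channel subunit. No gene is in both lists of 10.

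Mean deviations of lists for other genes, cells and regions were set against that of the 6 genes over the 18 libraries. The 9 cascade genes went with the 6 at r = 0.87 and the 14 genes of shared striatal identity at 0.82. The 7 cortical genes followed at 0.71, the 7 interneuron genes at 0.63 and the 6 genes of all neurons at 0.50. The means of the 6 direct pathway genes and of the 4 indirect pathway genes were near 0, at 0.096 and 0.097. Each gene counts equally in such a mean, and *Tac1* and *Penk* were not correlated singly with the 6. *Penk* is the most abundant of the indirect list, which summed to 128 FPKM in angiotensin II replicate 4 and 157 in replicate 3. There the 6 genes summed to 134 and 173 FPKM, their lowest and highest sums in the 18 libraries, for which these mice were picked. Replicate 4 is also the library with the high pituitary sum given below. The highest indirect sum in the 18 was 160 FPKM, in angiotensin II replicate 6. Such sums lean on the most abundant genes, *Penk* and *Ppp1r1b*. Whether the sums went together over the 18 libraries was not tested. On the negative side stood the lists for midbrain dopaminergic neurons (-0.65), olfactory bulb (-0.58), astrocytes (-0.54) and choroid plexus (-0.48). Thalamus (-0.29) and cerebellum (-0.18) followed. Between the positive lists named first and the negative ones lay oligodendrocytes (0.41), microglia (0.33), endothelium (0.30), the other dopamine and adenosine receptors (0.21) and the dentate gyrus (0.14). The pituitary list had r = -0.31 but rho = 0.082. Its sum was 1573 FPKM in angiotensin II replicate 4 and at most 33.6 FPKM in any other library, so its r leans on that library. All lists had genes above 0, and their summed levels differed between mice, from 128 to 252 FPKM for the cerebellum and from 355 to 1125 FPKM for the choroid plexus. The part of the region content of each hemisphere sample in the co-variation was not tested.

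The other listed striatal genes gave no call either. Of the 6 direct pathway, 4 indirect pathway, 14 shared identity and 9 cascade genes, 0 passed an adjusted p-value of 0.05 in limma in any comparison. At an unadjusted p-value under 0.05, 1 of these 33 passed, in angiotensin II + AEC against vehicle + AEC, where 2.66% of all genes did. This was *Gpr6*, an orphan receptor of indirect pathway neurons that signals through cAMP. It stood at 5.27 ± 0.491 FPKM with angiotensin II + AEC and at 6.00 ± 0.751 with vehicle + AEC (log2 fold change -0.18, SE 0.084, limma's adjusted p = 1). With the library set as a term, *Gpr6* again passed the unadjusted threshold in that comparison (-0.21, SE 0.072), as 1 of 33 against 4.01% of all genes. When AEC were added to angiotensin II, 2 of 33 passed in that fit, *Gpr6* (-0.17, SE 0.072) and *Gnal* (-0.067, SE 0.029), against 3.9% of all genes, and in the other comparisons and the interaction 0 of 33 did. For angiotensin II against vehicle, the median log2 fold change was -0.020 for the 6 genes, 0.039 for the direct pathway, -0.032 for the indirect pathway, 0.037 for shared identity and -0.052 for the cascade, against 0.021 for all genes tested. *Penk* differed by -0.080 (SE 0.130), *Tac1* by 0.044 (SE 0.074) and *Adcy5*, the main striatal adenylyl cyclase, by 0.040 (SE 0.063). When AEC were added to angiotensin II, the medians were -0.063 for the 6 genes, -0.033, -0.064, -0.050 and -0.021 for the lists in the same order, and -0.017 for all genes.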

How the data were processed

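The authors deposited a table of FPKM per gene and mouse, with the gene length they used. Per the methods, reads were mapped to Ensembl's mouse genome, the submitters' processing notes name GRCm38 and DESeq 1.10.1, and the table's gene spans are those of GRCm38. The aligner, the counter and the use of strand are not given in the sources used here. FPKM times length gave whole reads for 100% of values (tolerance 0.01), which sets the depth of 16536449 to 25308700 reads a library and was used for limma voom as an alternative only. Reads carry no molecular identifiers, so depth bears on counting error only.

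Groups and replicate numbers came from sample titles. Samples are numbered mice, and p-values measure the spread between these samples. The main test was limma 3.58.1 in R 4.3.3 on log2(FPKM + 0.1), with all 4 groups in 1 fit, eBayes with a trend and Benjamini-Hochberg adjustment over 27286 genes above 0 in at least 6 mice, so fold changes are on that scale. Because the values are FPKM, no count model was the main test. Ratios and single genes were tested with exact permutation tests. On simulated data for angiotensin II against vehicle over 28563 genes, the fit called 31 of 67 genes changed 1.5-fold, 62 of 67 changed 2-fold and 66 of 66 changed 4-fold, with 4 false calls, among genes of at least 10 reads. The simulated libraries shared a single mean profile and spread and held no library sets. These counts therefore check the fit and do not give its power in the real libraries, where the sets widen the spread of 5 of the 6 genes.

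The 6 genes and the 19 other gene lists were chosen with earlier results of these data known. Named genes were the 6, *Penk*, *Tac1*, *Adcy5*, listed striatal genes at an unadjusted p-value under 0.05, and the 10 genes most correlated with the mean of the 6. Another gene of this rule is not reported here. *Gnal*, *Dclk3* and *Ppp1ca* were chosen after their values were seen, as were *Gng7* and the other genes of the comparison over 18 libraries. Replicate numbers were not used to pair the samples in the main test. Alternatives were other pseudocounts, filters and scalings, fewer groups in the fit, a replicate block, array weights, limma voom, the library set as a term, the 18 libraries alone and each mouse left out. Plots were drawn with matplotlib 3.10.9 and tables made with pandas 2.3.3 under Python 3.11.15.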

Additional observations from a re-analysis of the deposited data

Results flagged for a closer look

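In groups of 6 mice, the highest or lowest value stood apart from the others by more than Dixon's 95% limit in 7 of 32 combinations of gene or ratio and group. Chance flags about 1 in 20 independent combinations, but these share mice and genes, so that rate is no measure for them. All 7 came from vehicle + AEC replicate 6 and angiotensin II replicate 5, both libraries of high total FPKM. In vehicle + AEC replicate 6, the only such library of its group, *Drd2* was at 21.9 FPKM, *Adora2a* at 24.8 FPKM and *Ppp1r1b* at 168 FPKM, each above the other 5 mice, *Drd1* was at 5.41 FPKM, below them, and the log2 ratio of *Drd1* to *Drd2* was -2.02. In angiotensin II replicate 5, likewise the only such library of its group, *Pde10a* was at 5.20 FPKM and the log2 ratio of *Drd1* to *Drd2* was -1.89, both below the other 5 mice. In the groups with 2 such libraries no value stood apart by this limit, but there the gap can end at the other such library.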

How the results depend on the processing

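None of the 6 genes passed an adjusted p-value of 0.05 in any comparison of groups or in the interaction under any setting run. Of all genes, 1 passed with array weights for the interaction, and 0 to 1 when single mice were left out (1 for angiotensin II + AEC against vehicle + AEC without vehicle + AEC replicate 1). At an unadjusted p-value under 0.05, 1 of the 6 genes passed when AEC were added to angiotensin II (*Drd2*) and 1 when AEC were given with vehicle (*Pde10a*), each both with the library set as a term and in the 18 libraries alone. The number of all genes at that threshold ran from 93 (mean FPKM of at least 1) to 1416. That highest value came from the replicate block, for the interaction. With the replicate block the other 4 comparisons gave 950, 993, 1036 and 1096 genes, 0 of the 6 genes and 0 genes after adjustment. The replicate numbers share no source in the labels, and same-numbered samples correlated at -0.087 to 0.53. The values of 0.47 to 0.53 came from pairs in which both libraries were of high total FPKM. All libraries of that set are numbered 5 or 6, so the number is tied to the set. The main test did not use the numbers to pair the samples. The median r among the 6 genes was 0.099 after median ratio rescaling and 0.50 in the 18 libraries.

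The signs of the log2 fold changes depended on the setting, and in the main fit all intervals held 0. With angiotensin II against vehicle they turned with array weights for *Ppp1r1b* (0.0010), *Adora2a* (0.022), *Drd2* (0.016) and *Pde10a* (-0.097), with the library set as a term for *Drd2* (0.043) and *Pde10a* (-0.13), and in the 18 libraries for *Ppp1r1b* (0.045), *Adora2a* (0.068), *Drd2* (0.051) and *Pde10a* (-0.15). With AEC added to angiotensin II they turned with array weights for *Rgs9* (0.0016) and *Drd1* (0.042), with the set as a term for *Ppp1r1b* (-0.015), with rescaling for *Adora2a* (0.014), and in the 18 libraries for *Rgs9* (0.016), *Pde10a* (0.028) and *Drd1* (0.090). With vehicle + AEC against vehicle, *Pde10a* turned to -0.14 with array weights, -0.16 with the set as a term, -0.0032 with rescaling and -0.19 in the 18 libraries. Between angiotensin II + AEC and vehicle + AEC they turned with array weights for *Rgs9* (0.074), *Pde10a* (0.0039) and *Drd1* (0.0011), with the set as a term for *Ppp1r1b* (-0.0070) and *Pde10a* (0.019), and in the 18 libraries for *Rgs9* (0.093), *Pde10a* (0.070) and *Drd1* (0.060). For the interaction they turned with array weights for *Adora2a* (-0.065), *Drd2* (-0.082), *Rgs9* (0.034) and *Pde10a* (0.10), with the set as a term for *Ppp1r1b* (-0.0035), *Adora2a* (-0.087), *Drd2* (-0.17) and *Pde10a* (0.15), and in the 18 libraries for *Adora2a* (-0.14), *Drd2* (-0.15), *Rgs9* (0.046), *Pde10a* (0.22) and *Drd1* (0.046).

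With single mice left out, signs also turned. With angiotensin II against vehicle the ranges were -0.20 to 0.0086 for *Ppp1r1b*, -0.15 to 0.046 for *Drd2*, -0.023 to 0.070 for *Rgs9* and -0.13 to 0.19 for *Pde10a*. With AEC added to angiotensin II they were -0.0031 to 0.18 for *Ppp1r1b*, -0.097 to 0.059 for *Adora2a*, -0.19 to 0.0027 for *Drd2*, -0.092 to 0.00067 for *Rgs9* and -0.17 to 0.021 for *Drd1*. With vehicle + AEC against vehicle they were -0.27 to 0.0010 for *Ppp1r1b*, -0.054 to 0.023 for *Rgs9* and -0.16 to 0.15 for *Pde10a*. Between angiotensin II + AEC and vehicle + AEC they were -0.11 to 0.11 for *Adora2a*, -0.13 to 0.12 for *Drd2*, -0.035 to 0.036 for *Rgs9* and -0.29 to 0.016 for *Pde10a*. For the interaction they were -0.065 to 0.18 for *Drd2* and -0.075 to 0.018 for *Rgs9*. The causes of these turns were not tested.

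The log2 ratio of *Drd1* to *Drd2* turned in the 18 libraries, to 0.30 with AEC added to angiotensin II (0.35 also without angiotensin II replicate 4), to 0.16 between angiotensin II + AEC and vehicle + AEC and to -0.038 with angiotensin II against vehicle, where the ratio of *Adora2a* to *Drd2* turned to 0.016. Leaving out single mice, the *Drd1* to *Drd2* ratio ranged from -0.17 to 0.18 with AEC added to angiotensin II and from -0.32 to 0.075 between angiotensin II + AEC and vehicle + AEC, and the *Adora2a* to *Drd2* ratio from -0.033 to 0.052 with vehicle + AEC against vehicle and from -0.033 to 0.028 between angiotensin II + AEC and vehicle + AEC.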
